A study of Mus musculus with 17 samples.

Results

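The genes described here are 9 members of the matrix metalloproteinase system that stromal cells are known to express: the proteases Mmp2, Mmp3, Mmp13, Mmp14 and Mmp19, and the tissue inhibitors Timp1, Timp2, Timp3 and Timp4. They were taken by name from the 35285 genes measured in the cochlea, and each of the 9 names belonged to 1 gene. Each of 17 libraries held RNA from 1 wild-type male C57BL/6J mouse, 8 weeks old, taken 2 days after exposure. The 3 control mice were not exposed and had 3 intraperitoneal injections of saline. The 7 NE (noise exposure) mice were exposed for 2 h to noise of 8 to 16 kHz at 100 dB SPL, and whether they were injected is not given in the sources used here. In the 7 mice given brimonidine, which activates α2-adrenergic receptors, 3 intraperitoneal injections of 1 mg/kg were combined with that same exposure. Values are FPKM, the fragments counted on a gene scaled to the length of its exons and to the fragments counted in the library, so that levels can be compared between genes. The questions were whether noise exposure changed these genes and whether brimonidine changed them in exposed mice.

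Matrix metalloproteinases are zinc enzymes that cut collagens, proteoglycans and other proteins of the extracellular matrix, and they are made as inactive proenzymes. TIMP proteins bind the active site and block it. In the cochlea, fibrocytes of the lateral wall, bone cells, vessel walls and the cells around the nerve fibers lie in matrix that these enzymes can remodel.

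The labels call the source cochlear cells and give interstitial cells as the cell type, and the markers showed a mixed tissue. All 12 fibroblast markers were above 0 in some library and their FPKM summed to 384 to 999.7 per library, while 10 neutrophil markers summed to at least 39600 in all libraries other than control 2, where they summed to 9776. Control 2 also held the highest sums of fibroblast, osteoblast, cochlear fibrocyte, cerebellar and hindbrain, and central glia markers among the 3 controls. Between 14457733 and 18288851 fragments were counted per library, and the 9 genes rested on 27 to 6862 fragments each. In such bulk RNA, fewer cells of a type and less RNA per cell cannot be told apart.

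Mmp3, Mmp13 and Timp1 varied together among mice of the same group, as given further on, and the 250 bases before the start of each gene are shown to let their promoters be compared. The sequences are from RefSeq on GRCm38.p6, 5′ to 3′ on the plus strand, at chr9:7445572-7445821 for Mmp3, chr9:7272264-7272513 for Mmp13 and chrX:20869916-20870165 for Timp1. Capitals mark the AP-1 motif TGANTCA, which was searched on both strands.
Mmp3: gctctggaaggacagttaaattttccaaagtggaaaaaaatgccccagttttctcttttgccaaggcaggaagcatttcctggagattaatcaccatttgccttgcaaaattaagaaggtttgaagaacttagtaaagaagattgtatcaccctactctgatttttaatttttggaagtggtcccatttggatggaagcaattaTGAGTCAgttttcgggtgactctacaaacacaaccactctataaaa
Mmp13: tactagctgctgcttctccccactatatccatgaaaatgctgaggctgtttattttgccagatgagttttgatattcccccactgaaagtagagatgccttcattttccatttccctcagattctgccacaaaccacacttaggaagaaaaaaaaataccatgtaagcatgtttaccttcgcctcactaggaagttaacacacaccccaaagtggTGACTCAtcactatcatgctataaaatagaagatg
Timp1: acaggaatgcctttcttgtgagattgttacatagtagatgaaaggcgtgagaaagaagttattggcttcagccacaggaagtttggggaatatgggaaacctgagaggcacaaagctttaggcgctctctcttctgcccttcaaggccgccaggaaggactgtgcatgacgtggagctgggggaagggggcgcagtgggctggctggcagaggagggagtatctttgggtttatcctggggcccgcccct
Mmp3 held the motif 46 to 40 bases before its start and Mmp13 held it 35 to 29 bases before its start. The letters were not in the Timp1 window, nor in those of Timp2, Timp3, Timp4 and Mmp14. The windows of Timp2, Timp3 and Mmp14 end at a RefSeq start that matched no transcript start of GENCODE M21, and those of Timp2 and Timp3 lie in part or whole within the gene as the files place it. Of 32817 mouse promoter windows of this length, 6.75% held the motif. The ETS motif AGGAAG, searched on both strands, stood in the windows of Mmp3, Mmp13, Mmp14, Timp1, Timp3 and Timp4 and in 29.5% of all windows. Mmp3 and Mmp13 also held TATAAA, which 12.4% of all windows held, and Mmp13 and Mmp14 held the RUNX motif TGTGGT, which 14% held. A match is a description of the letters only. Promoters of 7 of the 9 genes were matched by symbol, and those of Mmp2 and Mmp19 were not.

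Collagenase 3, encoded by Mmp13 (ENSMUSG00000050578, chr9:7272514-7283331, GRCm38), had the highest mean level of the 9 genes at 97.9 FPKM ± 22.3 (SD, n = 17). Stromelysin 1, encoded by Mmp3 (ENSMUSG00000043613, chr9:7445822-7455975), followed at 76.7 ± 36.6 and stood below Mmp13 in 14 of 17 libraries. Timp2 (ENSMUSG00000017466, chr11:118301069-118355740), the inhibitor that also takes part in the activation of proMMP2, came next at 62.4 ± 8.82 FPKM, and Mmp3 was above it in 11 of 17 libraries. Timp1 (ENSMUSG00000001131, chrX:20870166-20874735), a secreted inhibitor, and the gelatinase gene Mmp2 (ENSMUSG00000031740, chr8:92827291-92853420) had means of 31.0 ± 13.2 and 29.3 ± 5.37 FPKM and could not be ordered, since Timp1 was the higher in only 7 of 17 libraries.

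Mmp14 (ENSMUSG00000000957, chr14:54431612-54445364), which encodes the membrane-bound activator of proMMP2, had 20.6 FPKM ± 3.33 (SD, n = 17) and was below Mmp2 in 17 of 17 libraries. Timp3 (ENSMUSG00000020044, chr10:86300372-86349506), the inhibitor that binds to the matrix itself, had 15.4 ± 4.03 FPKM and was below Mmp14 in 16 of 17. The lowest levels were those of the protease gene Mmp19 (ENSMUSG00000025355, chr10:128790910-128800824), at 2.69 ± 0.421 FPKM, and of Timp4 (ENSMUSG00000030317, chr6:115241892-115252205), at 1.63 ± 2.43. Timp4 was above Mmp19 in all 3 controls and below it in all 14 exposed mice. Over the 17 libraries, 98.7% of the genes in the table had a lower mean FPKM than Mmp13 and 62.2% a lower mean than Timp4. The pooled mean of Timp4 describes no single group, since the controls had at least 4.26 FPKM and the exposed mice at most 1.41.

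Several of these genes overlap others. Timp1 lies within Syn1, Timp3 within Syn3 and Timp4 within Syn2, each on the opposite strand to its synapsin gene, which encodes a protein of synaptic vesicles. Timp1 and Syn1 shared 0 exon bases, Timp4 and Syn2 shared 90, and Timp3 and Syn3 shared 1733. Mmp19 shared 789 exon bases with Tmem198b on the other strand. The library kit keeps strand, but the strand setting of the counting is not given in the sources used here, so reads of such pairs may not be told apart.

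**Figure D1:**
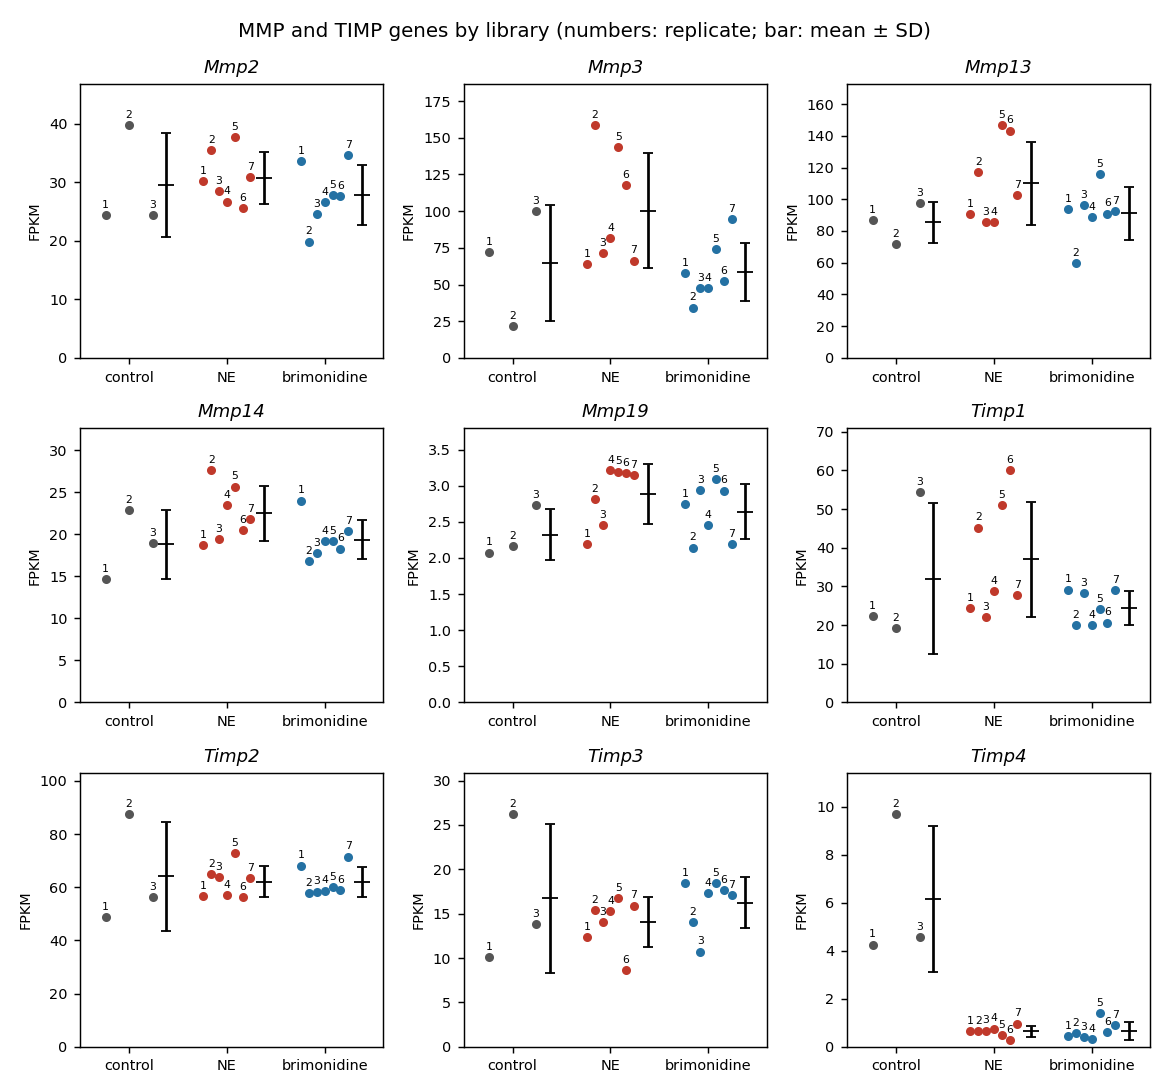
FPKM of the 9 genes in each library (points, numbered by replicate) for control (n = 3), NE (n = 7) and brimonidine (n = 7), with the mean ± SD as a bar to the right of each group. Timp4 is the gene whose control libraries, at 4.26 to 9.68 FPKM, all stand above the exposed libraries, at 0.291 to 1.41.

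In NE mice 1 of the 9 genes, Timp4, was lower than in the controls. Its FPKM was 4.26, 9.68 and 4.56 in the controls, while in the NE group the lowest library had 0.291, the median was 0.661 and the highest had 0.972. All 7 NE libraries stood below all 3 controls, as they did for 15% of the genes tested. The mean fell from 6.17 ± 3.05 (SD, n = 3) to 0.642 ± 0.215 FPKM (SD, n = 7), 9.60 times lower in the control-to-NE ratio of means. On the scale of log2(FPKM + 1) the log2 fold change was -2.06 (SE 0.21, 95% confidence interval -2.53 to -1.59, limma adjusted p = 0.000216). An exact two-sided permutation test gave p = 0.00833, the smallest that 7 against 3 libraries allow. Among the 15950 genes tested, 5.76% passed both thresholds (an adjusted p under 0.05, and a log2 fold change of 1 or more in size), and 5.49% did so as lower genes. Timp4 entered the test through the controls, since all 3 controls and 0 NE libraries reached the 1 FPKM of the filter. Fitted without a filter, it kept a log2 fold change of -2.06 (limma adjusted p = 0.00065). A count of 1 in 9 beside that background gives no result about the 9 genes as a group.

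Timp4 was lower with brimonidine than in the controls as well. Its FPKM was 0.332 at the lowest, 0.577 at the median and 1.41 at the highest, in brimonidine 5, and again all 7 exposed libraries stood below all 3 controls, as for 14.3% of the genes tested. The log2 fold change was -2.05 (SE 0.24, 95% confidence interval -2.58 to -1.51, limma adjusted p = 0.00111, exact permutation p = 0.00833), and 5.73% of 15947 genes passed both thresholds in that comparison, 5.56% as lower genes. Here too Timp4 met the filter through the controls, with 1 brimonidine library at 1 FPKM, and without the filter its adjusted p was 0.00254. The NE and brimonidine comparisons share the 3 control libraries. Between the exposed groups Timp4 was below the filter of 1 FPKM in at least 3 libraries, and tested without the filter its log2 fold change was 0.01 (limma adjusted p = 1.00, exact permutation p = 0.936).

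Syn2, the gene that contains Timp4, and markers of cerebellar and hindbrain neurons were lower in the same libraries. Syn2 stood at 5.92, 13.4 and 5.78 FPKM in the controls, at 0.496 to 1.38 in NE mice and at 0.474 to 2.09 in brimonidine mice. Its log2 fold change was -2.32 for NE against control and -2.34 for brimonidine against control (limma adjusted p = 0.000173 and 0.00111). Syn2 met the filter through the controls, with 1 exposed library at 1 FPKM in each comparison, and without the filter its adjusted p was 0.000582 and 0.00261. Syn1 fell as well, by 1.94 and 2.00 on the log2 scale (limma adjusted p = 0.00287 and 0.00238). Timp1, which lies within Syn1, did not pass the test in either comparison.

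Of the 10 cerebellar and hindbrain markers, 9 could be tested against the controls and 9 were lower in each exposed group. For 5 of the 9 the filter was met through the controls, with fewer than 3 exposed libraries at 1 FPKM, so the count of 9 in part follows from the filter. Without the filter all 10 were fitted and 10 were lower in each comparison, beside 6.43% and 6.58% of all genes. Cbln1, a synaptic organizer of cerebellar granule cells, averaged 52.5 FPKM in the controls and 1.25 in the NE group, and Gabra6, a GABA receptor subunit of the same cells, averaged 53.9 and 0.439. The summed FPKM of the 10 genes was 221 to 596 in the controls, 19.0 to 29.3 in NE mice and 20.0 to 81.3 in brimonidine mice, and none of the 10 was at 0 in all libraries. Control 2 was highest for this list, for Syn2 and for Timp4, and brimonidine 5 was highest for all of these among the exposed mice. Central glia markers were lower too, in 6 of 9 tested for NE and 7 of 9 for brimonidine, beside 12% and 12.3% of all genes lower by the adjusted p. Without the filter 6 of 10 were lower in each comparison. Their sums were 221 to 460 FPKM in the controls, 64.6 to 94.3 in NE mice and 58.6 to 105 in brimonidine mice. The part of these other cell types in the Timp4 result was not tested.

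**Figure D2:**
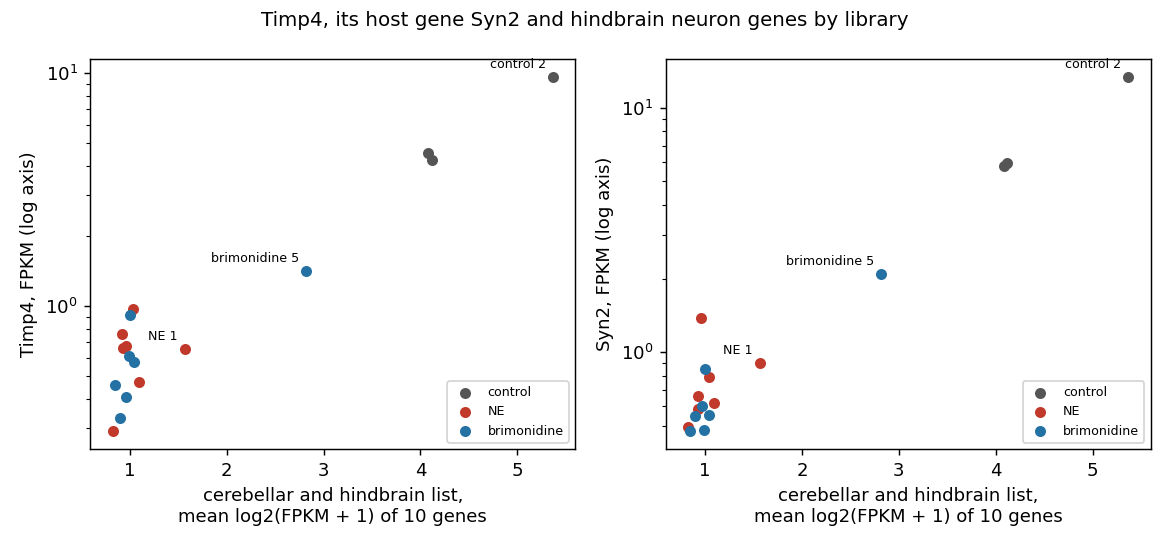
FPKM of Timp4 and of Syn2, which contains it (log axes), against the mean log2(FPKM + 1) of 10 cerebellar and hindbrain genes in the 17 libraries. The 3 controls stand at upper right, with control 2 highest, and brimonidine 5 is the exposed library nearest to them, with 1.41 FPKM for Timp4 and 2.09 for Syn2.

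Leaving out any 1 of the 3 controls left Timp4 untested for NE against control, because the filter needs 3 libraries at 1 FPKM and no NE library reached it. With the same genes kept in the test, a setting chosen after the data were seen, its log2 fold change was -2.24 without control 1 (limma adjusted p = 0.00044), -1.73 without control 2 (limma adjusted p = 3.82e-05) and -2.20 without control 3 (limma adjusted p = 0.00054). On the recovered fragments, with limma's voom, it was -3.22 for NE and -3.24 for brimonidine against control.

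The other 8 genes did not pass the test after noise exposure. Mmp3 had 71.9, 21.8 and 99.9 FPKM in the controls, and 63.7 at the lowest, 81.8 at the median and 158 at the highest in the NE group. Its groups overlapped, with 3 of 7 NE libraries above all controls and control 2 below all NE libraries. The log2 fold change was 0.79 (95% confidence interval -0.19 to 1.77, limma adjusted p = 0.237, exact permutation p = 0.167), which became 0.15 without control 2 and 1.22 without control 3.

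Mmp13 had 86.9, 71.9 and 97.6 FPKM in the controls and 85.4, 103 and 146 as the lowest, median and highest NE values. Here 4 of 7 NE libraries were above all controls, and the log2 fold change was 0.34 (95% confidence interval -0.09 to 0.77, limma adjusted p = 0.248), which was 0.22 without control 2. Timp1 had 22.3, 19.2 and 54.5 FPKM in the controls against 22.1, 28.8 and 60.1 in the NE group. Control 3 stood above all NE libraries but NE 6, and the log2 fold change of Timp1 was 0.27 (95% confidence interval -0.56 to 1.09, limma adjusted p = 0.643), which was -0.01 without control 2 and 0.72 without control 3.

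Mmp14 and Mmp19 had fold changes of the same sign. Mmp14 had 14.7, 22.9 and 19.0 FPKM in the controls and 18.7 to 27.7 in the NE group, a log2 fold change of 0.25 (95% confidence interval -0.08 to 0.58, limma adjusted p = 0.258), which was 0.09 without control 1 and 0.40 without control 2. Mmp19 had 2.08, 2.16 and 2.73 FPKM in the controls and 2.19 to 3.22 in the NE group, with 5 of 7 NE libraries above all controls. Its log2 fold change was 0.22 (95% confidence interval -0.03 to 0.48, limma adjusted p = 0.201, exact permutation p = 0.075).

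Mmp2, Timp2 and Timp3 were nearest to the controls with all libraries in. Without control 1 Timp3 was at -0.44. Without control 2 the 3 genes were at 0.31, 0.24 and 0.20, further from 0 than Mmp3 at 0.15. With all libraries the log2 fold changes of Mmp2, Timp2 and Timp3 were 0.08 (95% confidence interval -0.28 to 0.45), -0.01 (-0.36 to 0.34) and -0.16 (-0.72 to 0.41), and control 2 had the highest value of all 17 libraries for each of the 3 genes. Mmp2 there was 39.7 FPKM, Timp2 87.4 and Timp3 26.2. Over the 9 genes the median log2 fold change was 0.22, beside -0.04 for all genes tested, with 6 estimates above 0 and 3 below.

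Against the controls the brimonidine group showed the same count, with Timp4 the 1 gene of 9 that passed the test. The intervals of the other 8 all included 0. They were narrowest for Mmp19 (0.13, 95% confidence interval -0.11 to 0.38) and Mmp14 (0.05, -0.24 to 0.35), and widest for Mmp3 (0.04, -0.88 to 0.97) and Timp1 (-0.24, -0.84 to 0.37). Mmp3 became -0.60 without control 2 and 0.48 without control 3, and Timp1 became -0.51 and 0.21. Both genes passed the adjusted p under 1 other setting, given in the closing section. The median over the 9 genes was 0.04, beside -0.03 for all genes tested.

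Between the exposed groups, none of the 8 genes tested passed the threshold on the adjusted p, and of all 15707 genes tested 1 did (0.00637%). At an unadjusted limma p under 0.05 there were 3 of the 8 genes, Mmp3, Timp1 and Mmp14, all lower with brimonidine. The share of all genes that were lower at that unadjusted p was 2.46%, and 5.77% in either direction. The 3 genes are not independent, since their levels varied together among mice of a group. None of the 8 passed in the fit of the recovered fragments with voom either. The median log2 fold change over the 8 genes was -0.17, beside 0.01 for all genes tested.

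Mmp3 had the widest difference of the 8. Its FPKM in the brimonidine group was 34.3 at the lowest, 52.5 at the median and 94.4 at the highest, against 63.7, 81.8 and 158 in the NE group. The groups overlapped, with 5 of 7 brimonidine libraries below the lowest NE library and NE 2, NE 5 and NE 6 above every brimonidine library. The mean was 58.4 ± 19.9 FPKM with brimonidine and 100.3 ± 39.2 with noise alone (SD, n = 7 each). The log2 fold change was -0.75 (SE 0.24, 95% confidence interval -1.27 to -0.23), with an exact permutation p of 0.0192, an unadjusted limma p of 0.00801 and a limma adjusted p of 0.661. Across all settings tried it lay between -0.87 and -0.62 and the adjusted p did not fall below 0.461.

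Timp1 had 19.9 at the lowest, 24.2 at the median and 29.2 FPKM at the highest in the brimonidine group, against 22.1, 28.8 and 60.1 in the NE group. The same 3 libraries, NE 2, NE 5 and NE 6, stood above every brimonidine library, and the other 4 NE libraries lay within the brimonidine range. The log2 fold change was -0.50 (SE 0.21, 95% confidence interval -0.95 to -0.06, exact permutation p = 0.0536, limma adjusted p = 0.852). The SD was 14.9 FPKM with noise alone and 4.35 with brimonidine.

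Mmp14 was 16.8 to 24.0 FPKM with brimonidine and 18.7 to 27.7 with noise alone, a log2 fold change of -0.20 (95% confidence interval -0.39 to -0.01, exact permutation p = 0.0624, limma adjusted p = 0.857). Mmp13 was 59.6 to 116 FPKM with brimonidine, and NE 2, NE 5 and NE 6 were again above that range, at 117, 146 and 143. Its log2 fold change was -0.26 (95% confidence interval -0.58 to 0.06, limma adjusted p = 0.875). For Timp2 the interval was the narrowest, from -0.15 to 0.14 around a log2 fold change of 0.00, with means of 62.0 ± 5.54 and 62.2 ± 5.97 FPKM. Mmp2 (-0.15), Mmp19 (-0.09) and Timp3 (0.20) also had intervals that included 0, and leaving out 1 library brought them as near to 0 as -0.07 (Mmp2, without brimonidine 2), -0.06 (Mmp19, without brimonidine 2) and 0.10 (Timp3, without NE 6).

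**Figure D3:**
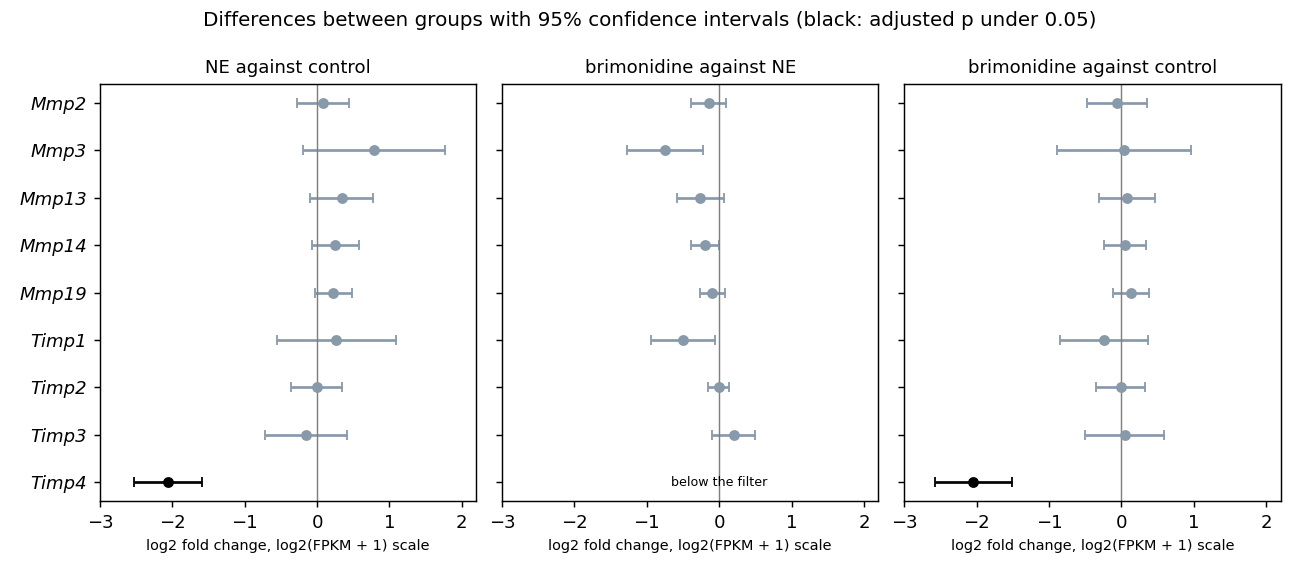
Log2 fold changes of the 9 genes on the log2(FPKM + 1) scale with 95% confidence intervals in the 3 comparisons, black where the limma adjusted p was under 0.05. Timp4 lies at -2.06 and -2.05 against the controls, and the interval of Mmp3 between the exposed groups runs from -1.27 to -0.23 although its adjusted p was 0.661.

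Among mice of the same group, Mmp3, Mmp13 and Timp1 varied together. Deviations from the group mean of log2(FPKM + 1) were correlated over the 17 libraries, as a description, and over the 14 exposed mice, which leaves out control 2. Mmp3 and Mmp13 had Pearson's r of 0.72 over 17 and 0.76 over 14 libraries, Mmp3 and Timp1 0.76 and 0.77, and Mmp13 and Timp1 0.74 and 0.78. All 3 genes were above their group mean in control 3, NE 2, NE 5, NE 6, brimonidine 1, brimonidine 5 and brimonidine 7. They were all below it in control 2, NE 1, NE 3, NE 4, NE 7, brimonidine 2 and brimonidine 4.

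Mmp2, Mmp14, Timp2 and Timp3 also varied together over the 17 libraries, though less so among the exposed. The correlation of Mmp2 with Timp2 was 0.85 over 17 and 0.84 over 14 libraries, that of Mmp2 with Mmp14 was 0.76 and 0.73, and that of Mmp14 with Timp2 was 0.75 and 0.66. Timp3 had r = 0.73, 0.71 and 0.79 over 17 libraries with Mmp2, Mmp14 and Timp2, and 0.60, 0.56 and 0.55 over the 14 exposed. All 4 were above their group mean in control 2, NE 2, NE 5, brimonidine 1 and brimonidine 7. Over the 14 exposed the genes could not be parted into separate sets, since Mmp3 had r = 0.68 with Mmp14, 0.67 with Mmp2 and 0.59 with Timp2. Over 17 libraries these were 0.16, 0.03 and -0.23. Control 2 had the lowest Mmp3 and the highest Timp2 of all libraries, and the lowest neutrophil marker sum.

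**Figure D4:**
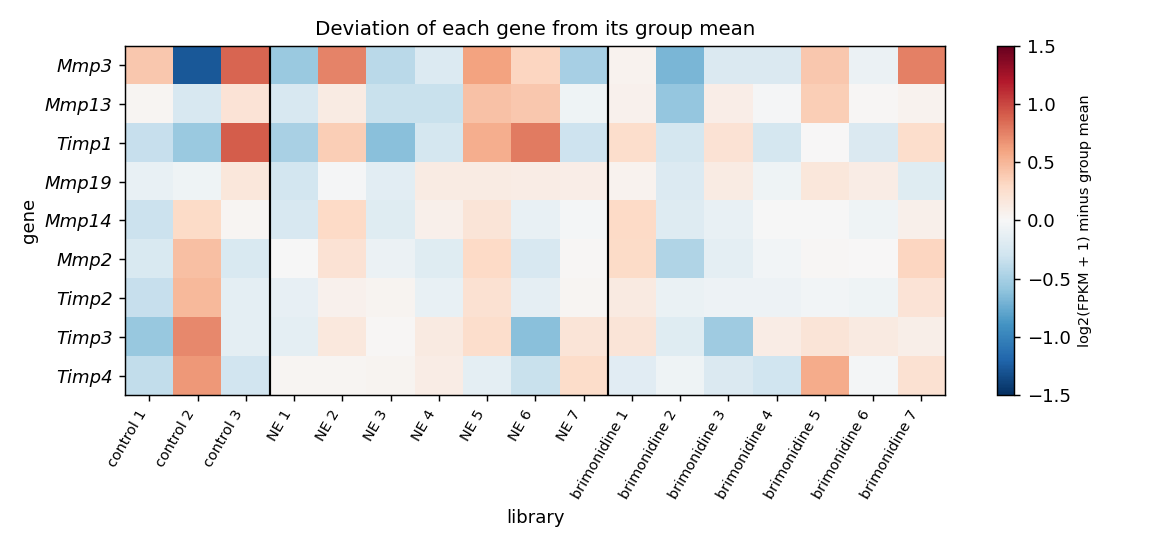
Deviation of each gene in each library from its group mean, in log2(FPKM + 1), with red above and blue below the mean and black lines between control, NE and brimonidine. Mmp3, Mmp13 and Timp1 are red together in control 3, NE 2, NE 5 and NE 6, and control 2 is blue for these genes and red for Mmp14, Mmp2, Timp2, Timp3 and Timp4.

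The genes differed in how closely they followed marker genes. Over the 14 exposed mice, Mmp2 had r = 0.97 with the mean of 12 fibroblast markers and r = 0.91 with that of 8 endothelial and mural markers. Timp2 had r = 0.79, Mmp14 r = 0.64 and Timp3 r = 0.60 with the fibroblast markers, while Timp1 had r = 0.30, Mmp19 r = 0.05 and Mmp13 r = 0.49. Mmp3 had r = 0.64 with fibroblast and 0.81 with endothelial and mural markers, and over all 17 libraries these fell to 0.08 and 0.05. Over the 14 exposed mice, r with the endothelial and mural markers was 0.72 for Timp2 and Mmp14 and 0.70 for Mmp13. It was 0.56 for Timp3, 0.50 for Timp1, 0.25 for Mmp19 and 0.24 for Timp4. With the neutrophil markers r was -0.87 for Timp3, -0.73 for Mmp2, -0.66 for Mmp14, -0.56 for Timp2 and -0.42 for Timp4. For Mmp3, Mmp13, Mmp19 and Timp1 it was -0.36, -0.11, -0.09 and 0.11. Timp4 had r = 0.71 with the cerebellar and hindbrain markers over these mice. Brimonidine 5 was the highest exposed library for both, and r without it was not computed. Of the 9 genes, Mmp2 followed the fibroblast markers most closely, and Mmp19, Timp4 (0.29) and Timp1 least. These points share their libraries and FPKM values share a total, so the correlations carry no test.

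The 3 genes most like each member, out of 16416, were found by Pearson's r of the same deviations over 17 libraries. Control 2 had the deviation of largest size for Mmp2, Mmp3, Timp2, Timp3 and Timp4. The most alike genes over the 14 exposed mice were not computed. For Mmp2 they were Bgn, a small proteoglycan (r = 0.96), Pdgfrb, a receptor of mural cells and fibroblasts (0.93), and Mfap4 (0.93). Mmp14 was most like Fzd1 (0.93), a Wnt receptor, Smad1 (0.91) and Tnks1bp1 (0.91). Timp2 was most like Adgra2 (0.97), Mcoln3 (0.97) and Arvcf (0.96), and Timp3 like Luzp1 (0.98), Tulp4 (0.97) and Arhgef12 (0.97).

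Timp1 was most like Nupr1, a stress-response gene (r = 0.93), Tmem176b (0.92) and Epcam, an epithelial adhesion gene (0.92). Mmp3 was most like Sdcbp2 (0.89), the zinc transporter gene Slc39a4 (0.86) and Crybb3 (0.86). Mmp13 and Mmp19 had weaker neighbours, with Kctd5 (0.77), F11r (0.77) and Ecscr (0.77) for Mmp13 and Tax1bp3 (0.77), Bcl2a1a (0.74) and F11r (0.74) for Mmp19. Timp4 was most like Kndc1 (0.95), 4930570G19Rik (0.93) and Sidt1 (0.92). Kndc1 stood at 4.64 to 13.1 FPKM in the controls and at 0.538 to 2.26 in the 14 exposed mice.

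A ratio of proteases to inhibitors was computed as the summed FPKM of the 5 MMP genes over that of the 4 TIMP genes. It describes RNA, not protein, and leaves out the other MMP genes, whose FPKM summed to 341 to 1153 per library. The ratio was 2.34, 1.11 and 1.89 in the controls. In the NE group it was 2.06 at the lowest, 2.18 at the median and 2.71 at the highest, and in the brimonidine group 1.44, 1.93 and 2.30. The groups overlapped, and Mmp3 with Mmp13 made up 70.8% to 84.1% of the MMP sum in every library but control 2, where they made up 59.1%. The ratio of Mmp14 to Timp2, the pair that acts on proMMP2, was 0.262 to 0.337 in the controls, 0.304 to 0.427 in NE mice and 0.285 to 0.352 in brimonidine mice.

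Mmp13 and Mmp3 lie 162490 bases apart in a run of 9 MMP genes on chromosome 9, from 7272514 to 7699585. Of the genes there, Mmp8, the collagenase of neutrophils, had higher means than both, at 272, 361 and 457 FPKM in the control, NE and brimonidine groups. Its deviations had r = -0.33 with those of Mmp3 over the 14 exposed mice, against 0.76 for Mmp13. Mmp12, which lies between Mmp13 and Mmp3, had r = -0.03 with Mmp3 and means of 3.53, 2.70 and 2.35 FPKM. The genes of the cluster in this paragraph were named after their values were seen.

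Among 17 other MMP genes in the table, 9 could be tested for NE against control, where 0 were higher and 2 lower at an adjusted p under 0.05, beside 2.12% higher and 12% lower among all genes tested. Mmp24, a membrane-bound protease known from neurons, fell from 10.7 ± 5.83 to 0.429 ± 0.171 FPKM, a log2 fold change of -2.93 (limma adjusted p = 4.99e-05). Like Timp4 it met the filter through the 3 controls alone, and without the filter its adjusted p was 0.000182. Mmp24 also fell with brimonidine against control, by 2.90 on the log2 scale (limma adjusted p = 0.00111, or 0.00249 without the filter, which 1 brimonidine library met), and, like Timp4, was highest in control 2 and, among exposed mice, in brimonidine 5. Mmp23 fell by 0.52 and 0.58 in the NE and brimonidine comparisons (limma adjusted p = 0.0473 and 0.0227, or 0.0797 and 0.0416 without the filter). Without the filter 2 of 17 other MMP genes were lower for NE and 4 of 16 for brimonidine, beside 6.43% and 6.58% of all genes in the same fits.

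Mmp27, a member of the cluster on chromosome 9, was higher with brimonidine than in the controls, with a log2 fold change of 0.45 (limma adjusted p = 0.0384, or 0.0464 without the filter, which it met in 4 brimonidine and 0 control libraries), 1 of 10 other MMP genes tested, while 3.47% of all genes were higher and 12.3% lower by the adjusted p in that comparison. The median log2 fold change of the other MMP genes was 0.01 for NE, 0.00 for brimonidine against control and 0.04 between the exposed groups. Mmp9, at a mean of 478 FPKM over the 17 libraries, Mmp8, at 385, and Mmp25, at 51.6, were the most abundant of these genes, named after their levels were seen, and all were lowest in control 2.

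Of 19 ADAMTS genes, which encode related proteases with thrombospondin repeats, 6 were tested for NE against control and 0 passed. Against control, brimonidine had 1 of 7 lower, Adamts4, an aggrecan-cleaving protease, with a log2 fold change of -0.61 (limma adjusted p = 0.0447). By the adjusted p, 12% of all genes were lower for NE and 12.3% for brimonidine against control, and 2.12% and 3.47% were higher. Adamts4 met the filter through the controls, and without the filter its adjusted p was 0.0679. Without the filter 2 other ADAMTS genes passed as lower in each comparison, Adamts16 (adjusted p = 0.00273 and 0.00275) and Adamts18 (adjusted p = 0.00428 and 0.00414), named after their values were seen. These were 2 of 19 genes fitted, beside 6.43% and 6.58% of all genes lower without the filter. Of 19 genes tested that activate or control MMPs, Plau, the urokinase that activates plasminogen, was higher with both, by log2 fold changes of 0.54 and 0.50 (limma adjusted p = 0.0268 and 0.0181). It was the 1 higher gene of that list in each comparison, beside 2.12% and 3.47% of all genes. Plau had 12.0, 7.10 and 10.6 FPKM in the controls, and medians of 14.6 in NE mice and 14.2 in brimonidine mice. A2m, a protease inhibitor of plasma, fell by 0.72 and 0.79 (limma adjusted p = 0.0444 and 0.0324, or 0.0757 and 0.0567 without the filter), the 1 gene of that list that was lower in each comparison. The share of all genes that were lower was 12% and 12.3%. The median log2 fold change of the list was 0.00 and -0.05. Between the exposed groups, 0 genes of these lists passed the adjusted p, and at an unadjusted p under 0.05 there were 2 of 9 other MMP genes (1 higher, 1 lower), 1 of 7 ADAMTS genes (lower) and 2 of 19 activation and control genes (1 higher, 1 lower), beside 5.77% of all genes in either direction.

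Markers of other tissues moved in part of these comparisons. Skeletal muscle markers were higher in the NE group than in the controls for 4 of 9 genes and in the brimonidine group for 1 of 9, with sums of 214 to 565 FPKM in the controls, 402 to 970 in NE mice and 322 to 844 in brimonidine mice. By the adjusted p 2.12% of all genes were higher for NE and 3.47% for brimonidine against control. Without the filter on low values the muscle counts were 1 and 0, beside 0.598% and 0.922% of all genes. Macrophage markers passed as higher for 1 of 8 genes in the NE group, Csf1r, and for 2 of 8 in the brimonidine group, Csf1r and Adgre1, and of 7 osteoclast markers Nfatc1 passed as higher in both. Without the filter Csf1r no longer passed for brimonidine (limma adjusted p = 0.0516). Neutrophil markers had median log2 fold changes of 0.76 and 0.74 against the controls, where control 2 was low, and 0 of 10 passed. Of 11 fibroblast markers tested, 0 passed in any of the 3 comparisons. Between NE and brimonidine 0 markers of any list passed the adjusted p.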

How the data were processed

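RNA was extracted with TRIzol from cochlear tissue, and libraries were made with a TruSeq stranded mRNA kit and sequenced on a NovaSeq instrument. Per the labels, the authors' processing notes name Trimmomatic, HISAT2, HTSeq, Cufflinks and mm10, without versions or order. The authors deposited FPKM values for 35285 genes, with 0 columns left unused. Positions were identical to GENCODE M21 for 33054 of 35207 genes. Of the 35029 genes above 0, 32423 gave fragments within 0.02 of a whole number (a wider margin at high counts) with their GENCODE exon length. For 2602 more, Mmp14 among them, a length was sought that made the fragments whole, so these are no check of the recovery. Fragments were so recovered for 35025 genes.

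Groups followed the labels. Genes reaching 1 FPKM in 3 or more of the compared libraries were tested on log2(FPKM + 1), a scale that understates changes of low genes, with limma 3.58.1 in R 4.3.3 (lmFit, eBayes with trend) and the 2 groups compared. The study's test, DESeq2, was not run, since the deposited values are FPKM, and the recovered fragments were fitted with voom as an alternative. Benjamini-Hochberg adjustment covered all genes tested. Permutation tests were exact, two-sided and not adjusted over the 9 genes. On simulated data with 200 changed genes the fit was tested first. Python 3.11.15, scipy 1.17.1, numpy 2.4.6, pandas 2.3.3 and matplotlib 3.10.9 were used.

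The 9 genes, the lists and the rule for named genes were chosen with earlier results of these data known. The rule named the 9 genes, genes of the 3 protease and activation lists and the synapsin genes that passed the adjusted p (at most 5 per direction), the 3 genes most like each member, and markers of the lists given. Alternatives were another pseudocount, no filter, 3 rescalings, all 17 libraries in 1 model, a replicate block, array weights, voom on recovered fragments, and libraries left out. The p-values measure the spread between mice.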

Additional observations from a re-analysis of the deposited data

How the results depend on the processing

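The count of the 9 genes past both thresholds was 1 for NE against control, 0 for brimonidine against NE and 1 for brimonidine against control. A pseudocount of 0.1, no filter, rescaling by totals, median ratio or quantiles, 1 model for all 17 libraries and voom on the recovered fragments left these counts as they were, although rescaling by quantiles or the median ratio moved the median log2 fold change of all genes in NE against control from -0.04 to 0.06. For the adjusted p alone, the NE count was 2 with quantile normalization (Mmp19 at 0.44, adjusted p = 0.0405) and 2 with array weights (Mmp2 at 0.32, adjusted p = 0.0253). For brimonidine against control, array weights gave 2 past both thresholds and 3 past the adjusted p, with Timp1 at -1.01 (adjusted p = 0.00214) and Mmp3 at -0.71 (adjusted p = 0.0271), and the cause was not tested. Without control 2 and brimonidine 5 the counts against control were 0 by both rules, because 2 controls cannot meet the filter on 3 libraries. With the genes kept as with all libraries, a setting chosen after the data were seen, Timp4 passed both thresholds in each comparison, at -1.73 and -1.81. Leaving out 1 library at a time gave counts of 0 to 1 for NE against control, with 0 where a control was left out, 0 throughout for brimonidine against NE, and 1 throughout for brimonidine against control.

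Same-numbered libraries of the groups had correlations of their deviations between -0.22 and 0.08. Whether the numbers mark a shared day or batch is not given in the sources used here. With the replicate number as a block, 0 of the 9 genes and 0 of all genes passed for NE against control by either rule (Timp4 at -2.03, adjusted p = 0.205), 0 of 9 passed for brimonidine against NE, and Timp4 kept its call at -2.20 for brimonidine against control (adjusted p = 0.0361). Exposed libraries 4 to 7 have no control of the same number. In that model only libraries 1 to 3 of each group bear on a difference from control.

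Genes that had not passed the test changed sign under some settings. For NE against control these were Timp2 with the median ratio (0.12), Mmp2 with quantiles (-0.0016), Mmp3 (-0.069), Timp1 (-0.61), Timp2 (0.16) and Timp3 (0.11) with array weights, and Timp1 (-0.0097), Timp2 (0.24) and Timp3 (0.20) without control 2 and brimonidine 5, whichever genes were kept. For brimonidine against NE, Timp2 changed sign with quantiles (0.019), equal totals (0.019) and without brimonidine 5 (0.0026). For brimonidine against control they were Mmp2 (0.041) and Timp2 (0.096) with the median ratio, Mmp13 with quantiles (-0.058), Mmp3 (-0.24), Mmp13 (-0.059) and Timp3 (-0.13) with the replicate block, Mmp2 (0.20), Mmp3 (-0.71), Mmp13 (-0.076), Mmp19 (-0.011) and Timp2 (0.16) with array weights, and Mmp2 (0.16), Mmp3 (-0.66), Mmp13 (-0.099) and Timp2 (0.24) without control 2 and brimonidine 5. With control 3 left out and the genes kept, Mmp2 was -0.03 for NE and Timp3 -0.029 for brimonidine against control. With 1 library left out, the values for NE against control ran from -0.031 to 0.31 for Mmp2, -0.0097 to 0.72 for Timp1, -0.18 to 0.24 for Timp2 and -0.44 to 0.20 for Timp3. For brimonidine against NE they ran from -0.038 to 0.035 for Timp2, -0.20 to -0.072 for Mmp2, -0.32 to -0.16 for Mmp13, -0.14 to -0.058 for Mmp19 and 0.099 to 0.29 for Timp3. For brimonidine against control they ran from -0.18 to 0.16 for Mmp2, -0.60 to 0.48 for Mmp3, -0.038 to 0.18 for Mmp13, -0.11 to 0.20 for Mmp14, 0.078 to 0.22 for Mmp19, -0.51 to 0.21 for Timp1, -0.18 to 0.23 for Timp2 and -0.24 to 0.41 for Timp3. Depth limited Timp4 most, with 27 to 148 fragments in the exposed libraries.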
